A study of Mus musculus with 12 samples.

Results

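Unfolded protein and integrated stress response genes were followed on 12 arrays (Affymetrix Mouse Gene 1.0 ST) of primary microglia from mice. Microglia are macrophages that live in the brain. The set holds 36 named genes of 15273 tested. They were listed by name as 14 chaperones and folding enzymes of the endoplasmic reticulum, 4 factors of its degradation pathway, 8 sensors and transcription factors, and 10 Atf4 targets and stress outputs. Each gene is represented by its brightest probe set among those annotated with that symbol alone, by mean signal over the 12 arrays. All 36 had such a probe set and all 36 passed the filter on dim genes, a mean log2 signal above 5.36.

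The microglia came from wild-type mice or from animals that the labels call Tlr4 knockouts, Tlr4 being a receptor that senses lipopolysaccharide of bacteria. The exposed cells spent 24 h in conditions described as hypoxic or hypoglycemic (ischemia), and the controls spent the same 24 h in normal oxygen and glucose. Reperfusion, a return to normal medium and oxygen for 24 h, followed in all groups including the controls, and the arrays therefore show cells after recovery and not during the exposure. Each genotype thus has a control and an ischemia group, which makes 4 groups of 3 arrays, numbered 1 to 3. The labels give no strain, age or description of the Tlr4 alteration, and leave unsaid whether the 3 arrays of a group are 3 cultures, 3 animals or neither. The p-values here therefore reflect the spread among these samples alone, and that spread may be technical. The source label of the wild-type ischemia arrays reads as control, against their titles and the key of the series, and the titles were followed.

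The endoplasmic reticulum folds secreted and membrane proteins, and unfolded proteins there are sensed by Ire1 (gene Ern1), Perk (gene Eif2ak3) and Atf6. Atf6 and the spliced form of Xbp1 switch on chaperones and degradation factors. Perk, like other kinases that sense amino acid shortage, haem shortage or viral RNA, phosphorylates the initiation factor eIF2, which slows translation in general and lets Atf4 be made, and Atf4 then switches on amino acid synthesis, transport and feedback genes. In macrophages and microglia these programs are known to respond to secretory load, nutrient shortage and inflammatory stimuli.

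Facts of the arrays that bear on these genes are few. Tlr4 read 8.71 ± 0.22 (SD, n = 6) in knockout-labelled and 8.74 ± 0.18 (SD, n = 6) in wild-type arrays (two-sided exact permutation test, p = 0.851), so the signal does not separate the genotypes and the 6 arrays are called knockout-labelled. Where the probes lie relative to the alteration is not known, so this level may check nothing. Of 11 measured microglia markers, 10 passed the dim limit, among them Csf1r at 12.3, Itgam at 12.0 and Trem2 at 10.9, while Gpr34 at 4.84 did not and P2ry12 (5.75) and Tmem119 (6.51) were low. The extraction label names myocytes, and the 10 muscle markers had mean signals of 5.31 to 7.13, 9 of them above the dim limit. Array means ran from 5.82 to 6.14 for astrocyte markers (4 of 7 above the dim limit), 5.38 to 5.86 for neuron markers (4 of 7) and 6.35 to 6.87 for oligodendrocyte markers (5 of 5). They ran from 5.84 to 6.54 for fibroblast and mural markers (5 of 7), 6.20 to 6.67 for endothelial markers (3 of 6) and 5.95 to 6.20 for monocyte and border macrophage markers (3 of 6). These means hide brighter single genes. The brightest were Aldh1l1 at 8.16 for astrocytes, Gad1 at 6.67 for neurons and Mbp at 7.68 for oligodendrocytes. For the later lists they were Col1a1 at 7.71, Flt1 at 9.55 and Mrc1 at 11.2. In such bulk samples fewer cells of a type and less RNA per cell cannot be told apart. Knockout-labelled control array 3 stood apart, with a median correlation of 0.976 with the other arrays against 0.982 or more for the rest. Values without it are given where a named change turned sign or moved by over 1.5 times. They keep knockout-labelled ischemia array 3, its same-numbered partner.

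The chaperone genes are shown first by sequence, because a shared promoter element is what their names alone do not tell. The ERSE, the element through which Atf6 acts together with the factor NF-Y, has the letters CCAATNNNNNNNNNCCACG. It was searched on both strands of RefSeq promoters of build GRCm38.p6, each running from 250 bases before to 50 after a gene's start. It was found in 39 of 32851 promoters (0.119%). Promoters were listed for 32 of the 36 genes, and 8 of those 32 held the element: Hspa5, Hsp90b1, Calr, Canx, Pdia6, Dnajc3 and Creld2 among the chaperones, and Syvn1 among the degradation factors. The members were listed by name as genes of the pathway in which this element acts. A share above that of all promoters is therefore no test of them. The 5 windows below show the match in capitals with its flanks in lower case, on the strand of the gene. Of the chaperones with the element, Hspa5, Pdia6, Creld2 and Dnajc3 are shown for their small p-values. Canx is shown because it was the only chaperone not higher after ischemia in the wild type. Dnajb11 and Pdia4, with the smallest p-values in the knockout-labelled arrays, held no ERSE match. Nor did Dnajb9 and Sdf2l1, which had small p-values in the wild type. The windows lie at chr2:34771985-34772083 (plus strand), chr12:17266451-17266549 (plus), chr15:88819480-88819578 (plus, match on the opposite strand), chr14:118937787-118937885 (plus) and chr11:50325760-50325858 (minus).
Hspa5: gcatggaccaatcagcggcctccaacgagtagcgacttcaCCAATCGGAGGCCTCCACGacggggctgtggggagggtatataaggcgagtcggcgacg
Pdia6: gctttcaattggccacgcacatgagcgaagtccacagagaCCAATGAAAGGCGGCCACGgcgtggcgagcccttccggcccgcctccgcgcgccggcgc
Creld2: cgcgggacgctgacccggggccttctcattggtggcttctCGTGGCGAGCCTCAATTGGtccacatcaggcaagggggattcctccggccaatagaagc
Dnajc3: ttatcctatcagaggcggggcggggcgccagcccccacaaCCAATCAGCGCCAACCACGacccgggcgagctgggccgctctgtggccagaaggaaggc
Canx: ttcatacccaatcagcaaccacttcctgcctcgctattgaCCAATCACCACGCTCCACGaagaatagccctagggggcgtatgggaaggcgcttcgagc

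Counted from the annotated start, the first bases of the matches lie at -65, -98, -126, -105 and -145, in the order of the lines. The related element ERSE-II (ATTGGNCCACG) was found in Dnajb11 and Herpud1, against 12 of 32851 promoters (0.0365%). The UPRE (TGACGTGG) was found in 0 of the 32 genes and in 0.676% of promoters. The CARE, the element that Atf4 binds with a C/EBP partner, was searched as TGATGNAA and found in Asns, Atf3, Chac1, Herpud1 and Trib3, against 3.97% of promoters. No matches of different elements overlapped in these promoters. Such a match is a description of letters and not a site shown to be bound. The windows of Asns (chr6:7693210-7693272, minus strand) and Chac1 (chr2:119351009-119351096, plus strand, match on the opposite strand) show the CARE in capitals for comparison with the chaperones, since both are Atf4 targets.
Asns: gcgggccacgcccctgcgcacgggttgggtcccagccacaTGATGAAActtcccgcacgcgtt
Chac1: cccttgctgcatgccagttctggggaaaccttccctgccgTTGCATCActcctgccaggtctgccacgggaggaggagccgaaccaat

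The question asked of the wild-type and of the knockout-labelled arrays was which of these genes differed after ischemia and reperfusion. The chaperones stood higher after ischemia in both genotypes by small amounts, and no chaperone passed the test. In the wild type 13 of 14 were higher, and the median log2 change was 0.16 (0.012 over all genes tested, 52.4% of which were higher). In the knockout-labelled arrays 14 of 14 were higher, with a median of 0.29 (-0.00092 over all genes, 49.8% of which were higher). The medians of degradation factors, sensors and Atf4 targets were 0.046, 0.10 and 0.021 in the wild type and 0.077, -0.025 and -0.10 in the knockout-labelled arrays. After quantile normalization the degradation medians turned to -0.063 (1 of 4 higher) and -0.0052 (2 of 4), and the sensor medians were 0.0056 and -0.092.

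**Figure D1:**
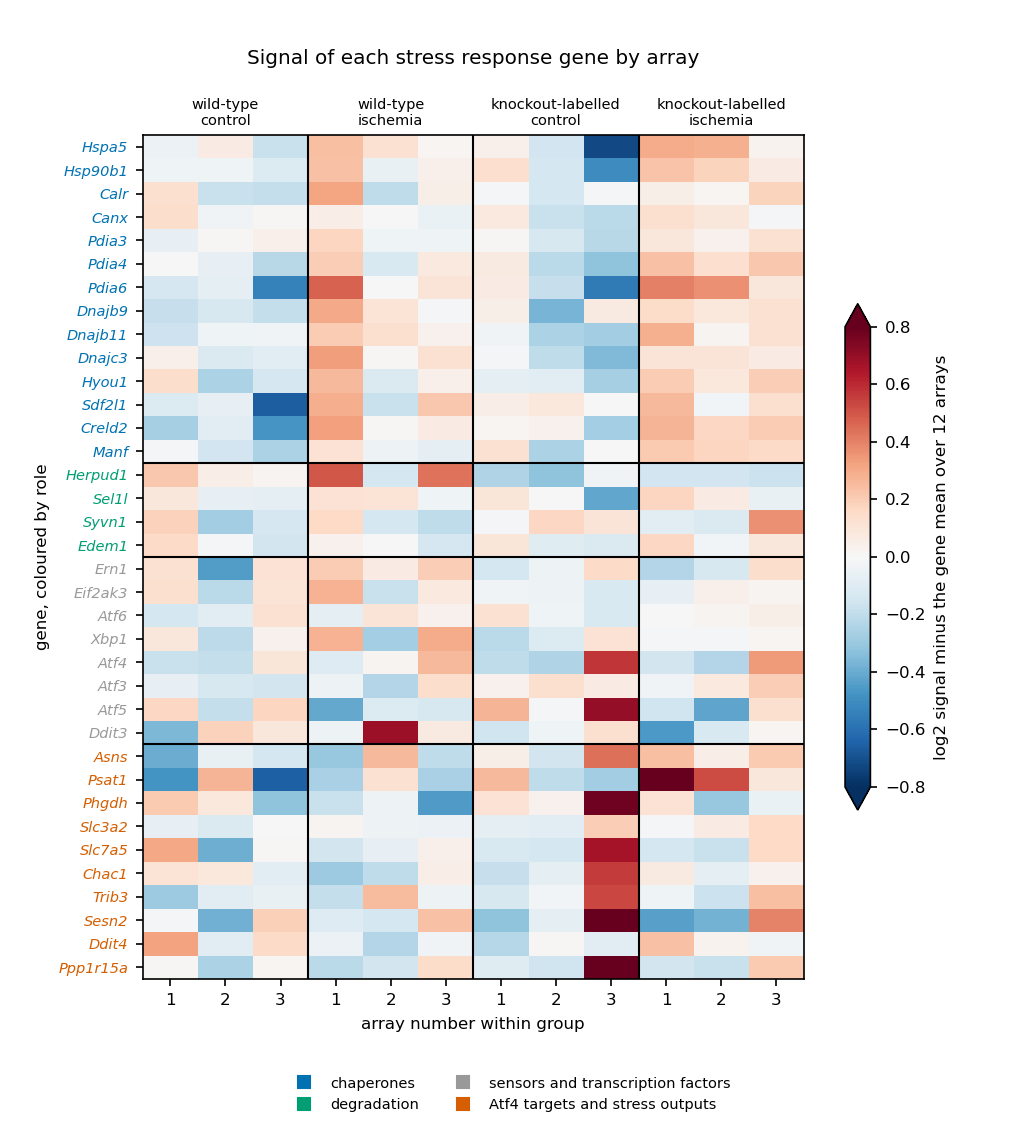
Log2 signal of each of the 36 genes (rows, coloured by role) on each of the 12 arrays (columns), as the difference from that gene's mean over all arrays, with red above and blue below it. Chaperones are mostly red in both ischemia groups, and knockout-labelled control array 3 combines blue chaperones such as Hspa5 (11.01) with red Atf4 targets such as Sesn2 (9.34).

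Without a block for the replicate number, limma called 0 of the 36 genes in the wild type at an adjusted p under 0.05, where 0.0131% of all genes were called, and 0 of 36 in the knockout-labelled arrays, where the background was 0%. At an unadjusted p under 0.05, 4 members were higher and 0 lower in the wild type (background 7.38% and 7.29%), and 9 were higher and 1 lower in the knockout-labelled arrays (background 5.66% and 3.08%). Arrays of a genotype that carry the same number shared deviations from their group means, and a second model therefore held each such pair as a block (the paired fit). The paired fit called 0 members in the wild type, with a background of 3.73%, and 1 in the knockout-labelled arrays, with a background of 0.648%. That gene was Psat1. Limma with array weights called 3 members in the wild type (Creld2, Pdia6 and Sdf2l1) among 1025 of 15273 genes, and 10 in the knockout-labelled arrays among 3157 genes. It gave weights from 0.279 (control array 3) to 6.11 (control array 2).

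Hspa5 encodes BiP, the main Hsp70 chaperone of the endoplasmic reticulum. It read 11.69, 11.80 and 11.56 in wild-type control arrays 1 to 3 and 11.98, 11.86 and 11.76 in wild-type ischemia arrays. In knockout-labelled arrays it read 11.78, 11.59 and 11.01 in control and 12.04, 12.02 and 11.77 after ischemia. Control array 3 was the lowest of all, and the groups overlapped in both genotypes, in the knockout-labelled arrays only between control array 1 and ischemia array 3. The change was 0.18 (SE 0.17, limma adjusted p = 0.611) in the wild type and 0.48 (SE 0.17, limma adjusted p = 0.560, paired fit 0.0580) in the knockout-labelled arrays, and 0.26 there without control array 3. Hsp90b1, the Hsp90 of this compartment, differed by 0.13 and 0.33, and by 0.16 in the knockout-labelled arrays without that control array.

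The disulfide isomerases form and rearrange the disulfide bonds of folding proteins. Pdia6 read 10.23, 10.29 and 9.82 in wild-type control arrays and 10.83, 10.36 and 10.46 after ischemia. Its knockout-labelled values were 10.42, 10.18 and 9.80 in control and 10.76, 10.73 and 10.45 after ischemia. Every ischemia array lay above every control array of its genotype, and the array numbered 3 was the lowest in each control group. Pdia6 had the largest chaperone change in both genotypes, 0.44 (SE 0.18, limma adjusted p = 0.313, paired fit 0.0571) and 0.51 (SE 0.18, limma adjusted p = 0.560, paired fit 0.0673). Pdia4 read 10.07, 10.004 and 9.85 in wild-type control and 10.26, 9.95 and 10.15 after ischemia, groups that overlapped. In knockout-labelled arrays it read 10.14, 9.85 and 9.75 in control and 10.30, 10.20 and 10.28 after ischemia, without overlap, a change of 0.35 (SE 0.12, limma adjusted p = 0.560). Pdia3, the isomerase that works on glycoproteins, differed by 0.040 and 0.20.

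The J-domain proteins drive the ATPase cycle of BiP. Dnajb9 read 8.77, 8.82 and 8.76 in wild-type control arrays and 9.26, 9.06 and 8.94 after ischemia, without overlap, a change of 0.30 (SE 0.12, limma adjusted p = 0.303). In knockout-labelled arrays it read 9.0002, 8.58 and 9.02 in control and 9.10, 9.04 and 9.07 after ischemia. The groups again did not overlap, but control array 2 alone lay clearly lower, and the change was 0.20. Dnajb11 read 9.81, 9.94 and 9.94 in wild-type control and 10.18, 10.10 and 10.01 after ischemia. It read 9.95, 9.72 and 9.70 in knockout-labelled control and 10.26, 9.99 and 10.09 after ischemia. Neither genotype overlapped, with changes of 0.20 and 0.33, and the second had the smallest unadjusted p of the 36 genes in that comparison (SE 0.10, limma adjusted p = 0.560). Dnajc3, which also inhibits eIF2 kinases, read 10.86, 10.71 and 10.73 in wild-type control and 11.16, 10.84 and 10.95 after ischemia. Its knockout-labelled values were 10.81, 10.62 and 10.47 in control and 10.93, 10.93 and 10.89 after ischemia, and only the wild-type groups overlapped (changes 0.21 and 0.28).

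Creld2, a disulfide-linked factor induced by stress of this compartment, had the smallest p of the 36 genes in the wild type. It read 8.95, 9.13 and 8.75 in wild-type control and 9.55, 9.23 and 9.28 after ischemia, a change of 0.41 (SE 0.13, limma adjusted p = 0.271, paired fit 0.0617). Its knockout-labelled values were 9.24, 9.25 and 8.95 in control and 9.49, 9.38 and 9.42 after ischemia (change 0.29, SE 0.13, and 0.19 without control array 3). Neither genotype overlapped. Sdf2l1, a partner of BiP complexes, read 9.16, 9.21 and 8.62 in wild-type control and 9.57, 9.10 and 9.49 after ischemia (change 0.39, SE 0.16, limma adjusted p = 0.315). In knockout-labelled arrays it read 9.33, 9.36 and 9.28 in control and 9.54, 9.26 and 9.41 after ischemia, which overlapped (change 0.077). Wild-type control array 3 was thus the lowest array for Sdf2l1, Creld2 and Hspa5 within its genotype.

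Hyou1, Manf, Calr and Canx are the other chaperones, with changes given wild type first. Hyou1, a large Hsp70 relative, differed by 0.14 and 0.30, Manf, a secreted factor that binds BiP, by 0.14 and 0.22 (8.35, 8.21 and 8.11 in wild-type control, 8.49, 8.11 and 8.36 in knockout-labelled control), and calreticulin, Calr, by 0.14 and 0.13. Canx, the membrane-bound lectin chaperone, read 12.48, 12.32 and 12.35 in wild-type control and 12.39, 12.34 and 12.29 after ischemia, the only chaperone that was not higher (-0.040). Its knockout-labelled values were 12.42, 12.16 and 12.13 in control and 12.47, 12.43 and 12.32 after ischemia (change 0.17). Among the 12 chaperones with a listed promoter, the 7 with the ERSE had median changes of 0.18 and 0.29 and the 5 without it 0.20 and 0.20.

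Ischemia arrays lay above all control arrays of their genotype for 4 of the 36 genes in the wild type (9.38% of all genes) and 10 in the knockout-labelled arrays (7.94%), and below for 0 in each (12.3% and 6.36%). In the wild type 12 members were higher in all 3 same-numbered pairs and 2 were lower (25.8% and 22.9% of all genes), and in the knockout-labelled arrays 17 and 7 (20.8% and 18.7%).

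Taken by pairs, 8 chaperones were higher after ischemia in all 6 same-numbered pairs of both genotypes: Hspa5, Pdia6, Dnajb9, Dnajb11, Dnajc3, Hyou1, Creld2 and Manf. With Sel1l from the degradation group this made 9 of the 36 genes, where 10.7% of all genes tested behaved so. Phgdh was the 1 member lower in all 6 pairs (6.36% of all genes). In knockout-labelled pairs 1 to 3 it differed by -0.0045, -0.34 and -0.83, so pair 1 hardly differed and pair 3 held control array 3. The mean of the 14 chaperones differed by 0.29, 0.055 and 0.26 in wild-type pairs 1, 2 and 3 and by 0.17, 0.28 and 0.38 in knockout-labelled pairs. Wild-type pair 2 thus had the smallest chaperone change. Without that pair the limma paired fit called 488 of 15273 genes and 3 members in the wild type, Pdia6 (0.63, adjusted p = 0.0190), Creld2 (0.56, adjusted p = 0.0318) and Sdf2l1 (0.64, adjusted p = 0.0318). Without knockout-labelled pair 1 it called 753 of 15273 genes and 4 members in those arrays, Hspa5 (0.59, adjusted p = 0.0280), Pdia6 (0.60, adjusted p = 0.0365), Psat1 and Phgdh (-0.58, adjusted p = 0.0353). Each of these left-out pairs had the smallest chaperone change of its genotype, so a larger chaperone mean without it was fixed beforehand. Knockout-labelled pair 1 also had the smallest Phgdh change of its genotype, so the same holds for Phgdh. Leaving out any other pair of the same genotype left no member called in that genotype. Both arrays of wild-type pair 2 also had the highest means of the 11 microglia markers, 9.25 in control and 9.24 after ischemia, where the other wild-type arrays had 8.41 to 8.64, and the part of this in the result was not tested.

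**Figure D2:**
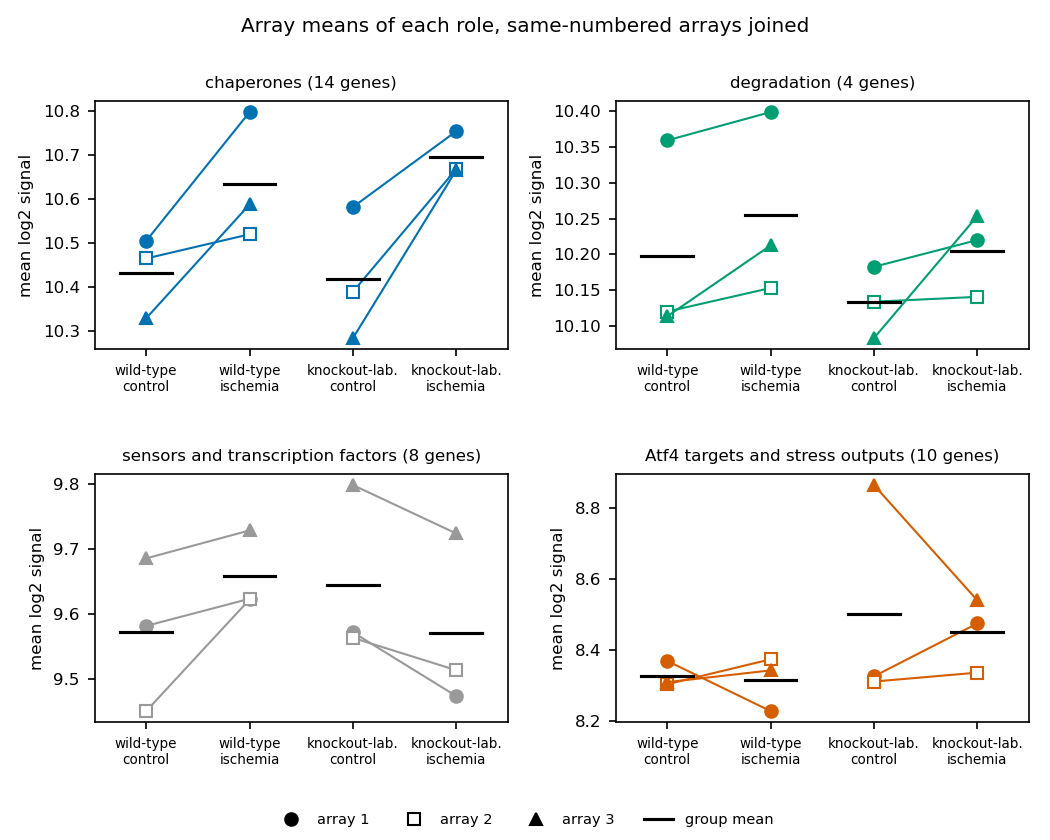
Mean log2 signal over the genes of each role (y axes) for every array in the 4 groups (x axes); symbols give the array number, lines join same-numbered arrays and black bars are group means. Chaperone means go up along all 6 lines, by 0.055 to 0.38, while the Atf4 target mean of knockout-labelled control array 3 (8.86) lies above all other arrays.

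Chaperones are bright on these arrays, with gene means from 8.36 to 12.3, and bright genes in general were higher after ischemia. Of the 1455 genes with a mean above 10 log2, 1047 were higher in the wild type (median 0.065) and 1014 in the knockout-labelled arrays (median 0.089). Wild type first, 422 and 579 of these bright genes were higher in all 3 same-numbered pairs, and 114 and 194 lower. Their ischemia arrays lay above all control arrays for 123 and 197, and below for 25 and 26. The shares given above for all genes thus understate those of genes this bright for higher signals. Upper quartiles of the array signals lay at 8.13 to 8.17 for wild-type control, 8.24 to 8.25 for wild-type ischemia, 8.12 to 8.16 for knockout-labelled control and 8.16 to 8.23 for knockout-labelled ischemia. After a further quantile normalization the wild-type chaperone median was 0.061, with 12 of 14 higher, and the knockout-labelled one 0.22, with 14 of 14 higher. The wild-type median was 0.10 without wild-type ischemia array 1, with 12 of 14 higher. Without knockout-labelled control array 3, all 14 were higher in the knockout-labelled arrays, with a median of 0.22.

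Degradation factors carry misfolded proteins out of the endoplasmic reticulum to the proteasome. Sel1l and the ubiquitin ligase Syvn1 form the export complex, Edem1 selects glycoproteins for it, and Herpud1 is a stress-induced member of that complex. Changes were 0.079 and 0.16 for Sel1l, 0.012 and -0.031 for Syvn1, -0.028 and 0.12 for Edem1, and 0.17 and 0.037 for Herpud1, wild type first. Without knockout-labelled control array 3 the knockout-labelled change was 0.0082 for Sel1l and 0.12 for Herpud1. By knockout-labelled pairs Sel1l differed by 0.073, 0.060 and 0.36, so pair 3 gave most of its change. No gene of the 4 had groups without overlap after ischemia in either genotype.

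No sensor or transcription factor passed the test. Eif2ak3 differed by 0.052 and 0.065, Atf6 by 0.056 and 0.031, Xbp1 by 0.13 and 0.067, and Atf3, an early stress factor, by 0.071 and 0.0068. Without knockout-labelled control array 3 the second values were 0.036, -0.024, 0.16 and 0.0012. Ern1 read 9.04, 8.47 and 9.03 in wild-type control and 9.12, 8.98 and 9.11 after ischemia, with control array 2 alone low. Its knockout-labelled values were 8.77, 8.87 and 9.07 in control and 8.68, 8.79 and 9.05 after ischemia (changes 0.22 and -0.064, the second 0.017 without control array 3). By knockout-labelled pairs Ern1 differed by -0.092, -0.088 and -0.013. Total Xbp1 signal does not show splicing, by which Ire1 acts, and the arrays do not show phosphorylation or translation, by which Perk and Atf4 are controlled.

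Atf4 read 9.11, 9.10 and 9.38 in wild-type control and 9.18, 9.31 and 9.55 after ischemia (change 0.15, SE 0.21). In knockout-labelled arrays it read 9.09, 9.04 and 9.86 in control and 9.14, 9.05 and 9.63 after ischemia (change -0.057, and 0.21 without control array 3). The arrays numbered 3 were the highest of every group. Atf5, a relative of Atf4 that is translated under the same control, read 9.41, 9.05 and 9.42 in wild-type control and 8.83, 9.14 and 9.11 after ischemia (change -0.27, SE 0.19). It read 9.52, 9.23 and 9.95 in knockout-labelled control and 9.08, 8.82 and 9.37 after ischemia. It was lower in all 3 knockout-labelled pairs, by -0.43, -0.41 and -0.58, while the groups overlapped (change -0.48, SE 0.19, limma adjusted p = 0.560, paired fit 0.0748, and -0.28 without control array 3). Ddit3, the death-linked factor CHOP, read 8.17, 8.71 and 8.62 in wild-type control and 8.49, 9.21 and 8.60 after ischemia. Its knockout-labelled values were 8.37, 8.50 and 8.66 in control and 8.07, 8.41 and 8.55 after ischemia (changes 0.27 and -0.17, the second -0.091 without control array 3).

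Psat1, a serine synthesis enzyme and Atf4 target, was the 1 member called when all arrays entered with equal weight, and that in the knockout-labelled paired fit and not without the block. With array weights it was also called in these arrays (limma adjusted p = 0.00768). It read 8.23, 7.77 and 7.69 in knockout-labelled control and 8.85, 8.49 and 8.06 after ischemia. Each array was higher than its same-numbered control, by 0.61, 0.73 and 0.37, although the groups overlapped. The rise was 0.57, or 1.48-fold (paired SE 0.12, limma paired fit adjusted p = 0.0411; SE 0.25 and adjusted p = 0.560 without the block). In the paired fit the call was lost without pair 2 (adjusted p = 0.366) or pair 3 (adjusted p = 0.126) of these arrays and kept without pair 1 (limma adjusted p = 0.0474). With 1 block level per number across both genotypes the limma adjusted p was 0.398, and with the pairs as a random block 0.197. Wild-type Psat1 read 7.49, 8.24 and 7.32 in control and 7.71, 8.09 and 7.71 after ischemia (change 0.15). Phgdh, the enzyme of an earlier step of the same synthesis, ran the other way, with changes of -0.21 and -0.39 (limma adjusted p = 0.619 and 0.578). It read 7.87, 7.74 and 7.34 in wild-type control, 7.48, 7.62 and 7.20 in wild-type ischemia, 7.77, 7.69 and 8.43 in knockout-labelled control and 7.77, 7.35 and 7.60 in knockout-labelled ischemia arrays. Without knockout-labelled control array 3 its change there was -0.16.

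**Figure D3:**
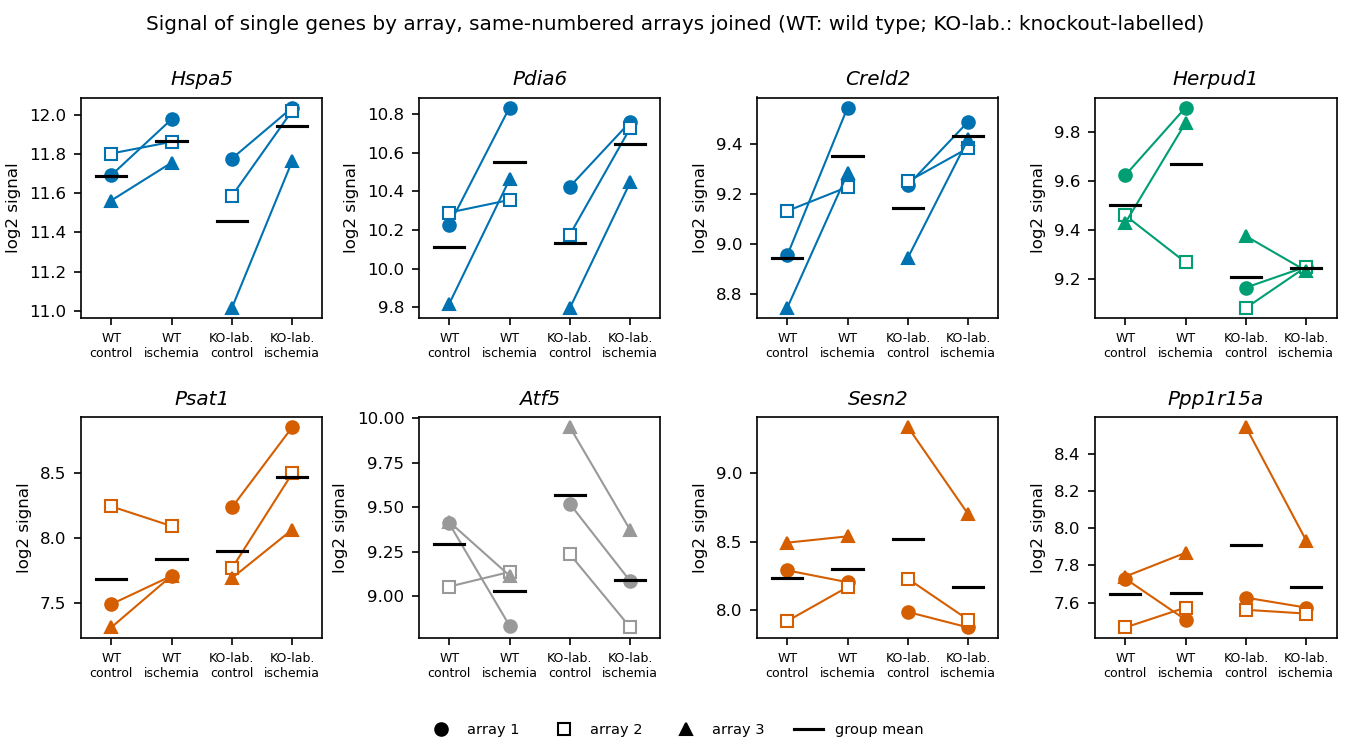
Log2 signal (y axes) of 8 genes on every array of the 4 groups (x axes); symbols give the array number, lines join same-numbered arrays and black bars are group means. Pdia6 and Creld2 go up along all 6 lines and Psat1 along all 3 knockout-labelled lines, Herpud1 is lower in all knockout-labelled ischemia arrays than in wild-type ischemia arrays, and Sesn2 and Ppp1r15a peak in knockout-labelled control array 3.

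The remaining outputs mostly followed knockout-labelled control array 3. Their array values are given for Sesn2, Ppp1r15a and Trib3 because of that array, a choice made after the values were seen. Sesn2, a stress-induced inhibitor of mTORC1, read 7.98, 8.23 and 9.34 in knockout-labelled control and 7.87, 7.93 and 8.70 after ischemia. Ppp1r15a, which encodes the phosphatase subunit that reverses eIF2 phosphorylation, read 7.63, 7.56 and 8.54, then 7.57, 7.54 and 7.93. Trib3, a pseudokinase that restrains Atf4, read 7.65, 7.75 and 8.30, then 7.74, 7.60 and 8.01. In each the third array was the highest of its group, in control and after ischemia. Without control array 3 the changes went from -0.35 to 0.060 for Sesn2, from -0.23 to 0.088 for Ppp1r15a and from -0.12 to 0.086 for Trib3. By pairs, however, Sesn2 (-0.11, -0.30 and -0.64) and Ppp1r15a (-0.054, -0.020 and -0.61) were lower in all 3. Trib3 differed by 0.093, -0.15 and -0.29. Wild-type values ranged from 7.92 to 8.54 for Sesn2, 7.47 to 7.87 for Ppp1r15a and 7.48 to 8.02 for Trib3.

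The mean of the 10 outputs was 8.86 in knockout-labelled control array 3, and 8.23 to 8.54 in the other 11 arrays. In the same array the mean of the 14 chaperones was the lowest of the 12, at 10.28. With it, 4 of the 10 outputs were higher after ischemia in the knockout-labelled arrays and the median was -0.10. Without it, 9 of 10 were higher and the median was 0.11. The sign of that median thus depended on control array 3, with ischemia array 3 kept. By knockout-labelled pairs 1 to 3, the mean of the outputs differed by 0.15, 0.025 and -0.32. In the wild type 6 of 10 were higher, and the median was -0.086 to 0.045 when single arrays were left out and -0.075 after quantile normalization.

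The transporter pair Slc3a2 and Slc7a5, which import large neutral amino acids, differed by 0.037 and -0.034 in the wild type and by 0.059 and -0.19 in the knockout-labelled arrays, where they stood at 0.15 and 0.081 without control array 3. By knockout-labelled pairs Slc7a5 differed by -0.014, -0.034 and -0.51. Chac1, which degrades glutathione, differed by -0.18 and -0.088, the second turning to 0.14 without that array. Asparagine synthetase, Asns, read 9.74, 10.08 and 10.001 in wild-type control and 9.84, 10.40 and 9.94 after ischemia. It read 10.19, 9.996 and 10.58 in knockout-labelled control and 10.38, 10.19 and 10.35 after ischemia (changes 0.12 and 0.052, the second 0.21 without control array 3). Ddit4, another inhibitor of mTORC1 and also a known hypoxia target, read 6.86, 6.45 and 6.69 in wild-type control and 6.49, 6.30 and 6.51 after ischemia. It read 6.31, 6.54 and 6.45 in knockout-labelled control and 6.77, 6.56 and 6.51 after ischemia. It was lower in all 3 wild-type pairs and higher in all 3 knockout-labelled pairs, with overlapping groups in each genotype (changes -0.23 and 0.18).

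**Figure D4:**
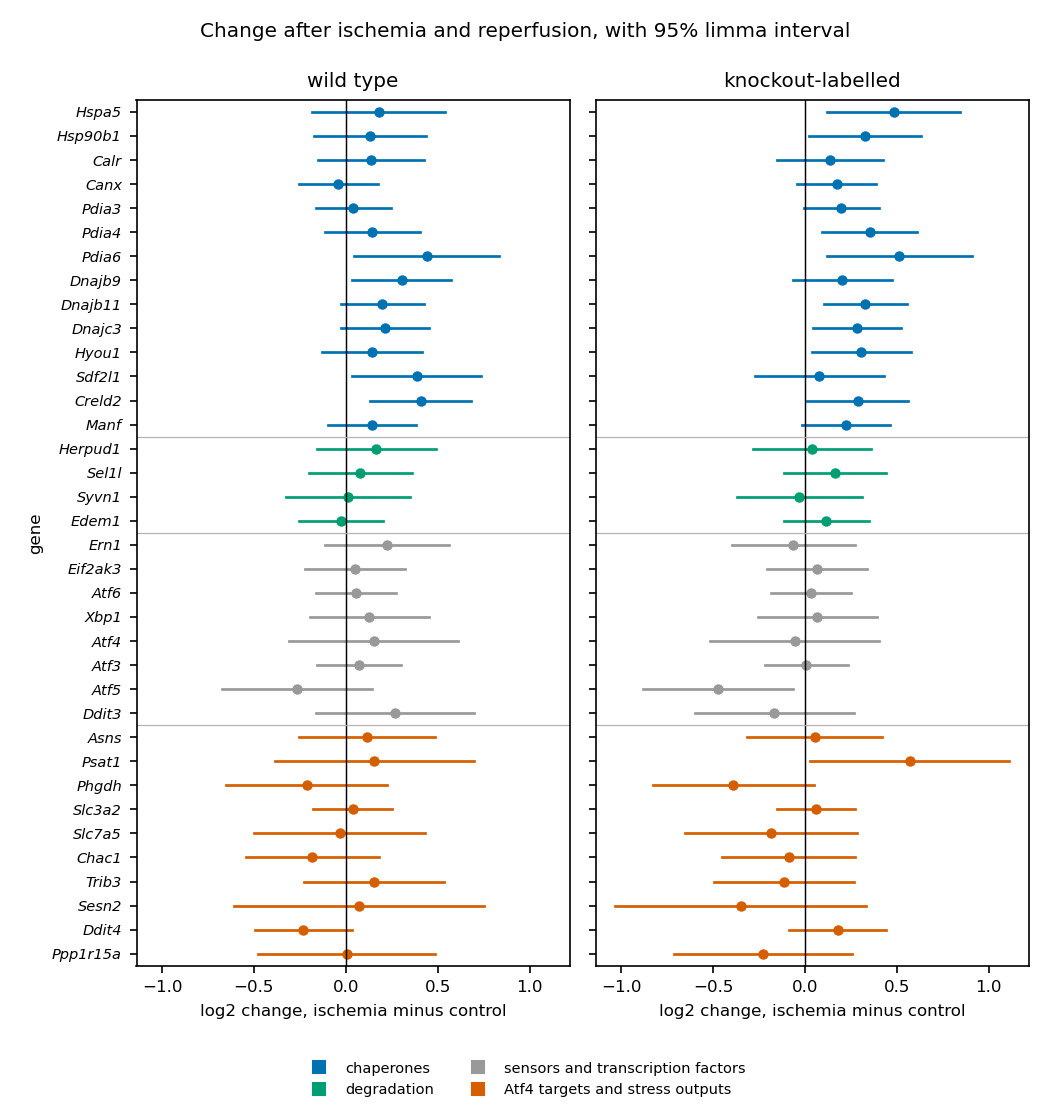
Log2 change after ischemia and reperfusion (x axes) of the 36 genes (y axis) in wild-type (left) and knockout-labelled arrays (right), n = 3 arrays a group; points are limma estimates without the replicate block and lines their 95% intervals. Chaperone points lie right of 0 in all cases but wild-type Canx (-0.040), and no gene passed an adjusted p of 0.05 in this fit.

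Whether the response differed between genotypes was tested as the difference of the 2 ischemia effects, knockout-labelled minus wild-type. No member was called by limma without the block (background 0%), and none in the paired fit (background 0.308%) or with array weights. At an unadjusted p under 0.05, 1 member had a higher difference (1.5% of all genes) and 0 a lower one (1.4%). The member was Ddit4, with a difference of 0.41 (95% interval 0.034 to 0.78, limma adjusted p = 1.00, paired fit 0.506). For Ddit3 the difference was -0.43 (-1.04 to 0.17), for Sdf2l1 -0.31 (-0.81 to 0.19), for Ern1 -0.29 (-0.76 to 0.19), for Canx 0.21 (-0.093 to 0.52) and for Hspa5 0.30 (-0.21 to 0.81). Without knockout-labelled control array 3 the Hspa5 difference was much smaller, with changes of 0.26 in the knockout-labelled arrays and 0.18 in the wild type. These intervals are all wider than the differences they surround, so equal responses were not shown.

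The genotype comparison in control cells asked which genes differed between the labels in cells kept in parallel without ischemia; it shares its arrays with the comparisons above. Limma called 0 of 36 (background 0.0589%), and 0 members had an unadjusted p under 0.05 in either direction (3.5% of all genes higher, 3.65% lower). The smallest p-values belonged to Sdf2l1 (0.32, SE 0.16), Herpud1 (-0.30, SE 0.15), Ddit4 (-0.23, SE 0.12), Asns (0.31, SE 0.17) and Atf3 (0.19, SE 0.10), with limma adjusted p = 0.705 for each. Without knockout-labelled control array 3 the Asns difference was 0.15. Knockout-labelled control arrays lay above every wild-type control array for Sdf2l1 and Atf3 (5.37% of all genes) and below for Herpud1 (4.52%). Atf3 read 11.56, 11.49 and 11.47 in wild-type control against 11.66, 11.75 and 11.69. After ischemia Atf3 read 11.58, 11.39 and 11.76 in the wild type and 11.60, 11.70 and 11.82 in knockout-labelled arrays, which overlapped. Over the 36 genes 22 were higher (50.8% of all genes). The outputs were higher in 9 of 10 genes with a median of 0.24, but in 4 of 10 with a median of -0.038 without knockout-labelled control array 3.

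After ischemia, Herpud1 had the smallest p-value of the 36 genes between genotypes, and it did not pass in the main fit. It read 9.90, 9.27 and 9.84 in wild-type ischemia and 9.25, 9.25 and 9.23 in knockout-labelled ischemia arrays. In control cells it read 9.62, 9.46 and 9.43 in the wild type against 9.16, 9.08 and 9.37. All knockout-labelled arrays lay below all wild-type arrays of the same condition. The margin was small after ischemia, where wild-type array 2 (9.267) lay just above knockout-labelled array 1 (9.250). The difference after ischemia was -0.42 (95% interval -0.75 to -0.10, limma adjusted p = 0.387). It passed without wild-type ischemia array 2 (-0.63, limma adjusted p = 0.0323). That array held the wild-type value nearest the knockout-labelled ones, so a larger difference without it was fixed beforehand. It also passed with array weights (-0.57, limma adjusted p = 0.00624), which gave the same array 0.458, the lowest weight of its group. The weights also called Psat1 among 942 of 15273 genes. Limma called 0 of 36 without the weights (background 0.714%). At an unadjusted p under 0.05 Psat1 was higher (0.63, SE 0.25; 3.79% of all genes) and Herpud1 lower (4.56% of all genes). Over the 36 genes 25 were higher (52.7% of all genes). Next by p came Ddit3 (-0.43, SE 0.20), Manf (0.18, SE 0.11) and Ern1 (-0.23, SE 0.15). Manf read 8.48, 8.33 and 8.29 in wild-type ischemia against 8.58, 8.53 and 8.52 in knockout-labelled ischemia arrays, without overlap, which 8.38% of all genes showed in that direction.

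Other genes of the pathway, 79 by name, gave 73 with a probe set of their own, and all 73 were tested. Limma without the block called 0 of them after ischemia in either genotype, and 7 and 8 had an unadjusted p under 0.05, all higher (7.38% and 5.66% of all genes). The wild-type paired fit called 5, of which 4 rose and 1 fell (background 2.99% and 0.74%), and the knockout-labelled paired fit called 0. Of 20 other folding factors, 20 were higher in the wild type (median 0.19) and 17 in the knockout-labelled arrays (median 0.16). In the wild-type paired fit of limma, Ppib, a prolyl isomerase of the endoplasmic reticulum, rose by 0.49 (adjusted p = 0.0353) and Selenos by 0.39 (adjusted p = 0.0347). Selenos belongs to the export complex of the degradation pathway but was listed here with the folding factors. Medians were 0.036 and 0.054 for the 13 genes listed as other degradation factors, Selenos not among them, with 0 called. They were 0.15 and 0.083 for 14 other regulators.

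Among those regulators Eif2ak2, the eIF2 kinase that senses viral RNA and is itself induced by interferon, rose by 0.69 in the wild-type paired fit (limma adjusted p = 0.0127). The 26 other Atf4-linked targets had medians of 0.012 and -0.033. Of these, Nupr1, a stress-induced chromatin protein, rose by 0.54 in the wild type (limma paired fit adjusted p = 0.0316), and Slc7a11, the cystine transporter and also an NRF2 target, fell by 0.67 (limma paired fit adjusted p = 0.0258). Slc7a11 was named after its values were seen, as the only lower call. All 5 calls were absent without the block, where the limma adjusted p lay from 0.267 to 0.467.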

How the data were processed

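Expression was measured on 12 single-colour arrays, 3 for each of 4 groups, and grouped by their titles. As deposited, a value is the log2 signal of a probe set. Per the submitters' processing notes the authors used Affymetrix Expression Console 1.1 and RMA, and the settings are not given in the sources used here. Of 35557 probe sets, 21789 carried 1 gene symbol, 1621 several and 12147 were not listed in the platform annotation. Each of 19938 genes was taken by its brightest probe set, and the 15273 above the 30th percentile of mean signal were tested. The model had 4 group means over all 12 arrays, in R 4.3.3 with limma 3.58.1 (lmFit, eBayes), and p-values were adjusted over all genes tested by Benjamini-Hochberg at 0.05. The script was tested on simulated data. The number of arrays limits the precision.

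Deviations from the group means correlated at 0.32 to 0.73 between same-numbered arrays of 1 genotype, and at -0.33 to 0.33 between genotypes. Between control and ischemia arrays of 1 genotype with different numbers they ran from -0.62 to 0.40, so the ranges overlapped. The numbers were therefore treated as pairs within genotype, a pairing that comes from the data and the shared numbers. The members and lists were chosen with earlier results of these data known. Members called in any comparison and the 5 with the smallest p-values in each are given array by array, with the others by role. Of the other pathway genes, up to 4 called genes a comparison are named. Alternatives were quantile normalization, median centring, array weights, other filters and probe set rules, replicate blocks and leaving out each array. Promoters came from RefSeq, build GRCm38.p6, and hold 32 of the 36 genes; Slc7a5, Manf, Hyou1 and Atf6 are not listed there.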

Additional observations from a re-analysis of the deposited data

How the results depend on the processing

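The direction of the chaperone result held under every alternative run, with 12 to 14 of 14 chaperones higher for the wild type and 14 of 14 for knockout-labelled arrays. No called value changed sign, while some medians near 0 did. With quantile normalization the median over the 36 genes was 0.024 (wild type) and 0.0044 (knockout-labelled). Array weights called 3 members in the wild type, 10 in the knockout-labelled arrays and 2 between genotypes after ischemia, among 1025, 3157 and 942 of 15273 genes, and gave medians of -0.058 for genotype in control cells and 0.048 for the difference of effects. The replicate block within genotype (the paired fit) called 1 member in the knockout-labelled arrays and changed no other call among the 36. Its background went from 2 to 570 genes for the wild type and from 0 to 99 for knockout-labelled arrays. Leaving out single arrays, or single pairs in the paired fit, gave 0 to 3 members called in the wild type, 0 to 4 in the knockout-labelled arrays and 0 to 1 between genotypes after ischemia. The medians then ran from 0.061 to 0.15 for the wild type and from 0.065 to 0.14 for knockout-labelled arrays, and for the Atf4 targets of the latter from -0.24 to 0.11. Leaving out an array leaves 2 in its group. The cause of these shifts was not tested.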

Other observations

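Outside the 36 listed genes, 10 tested genes held the ERSE letters in their promoter. Their median change after ischemia was -0.093 in the wild type, with 3 of 10 higher, and -0.059 in the knockout-labelled arrays, with 4 of 10 higher. The 8 members with the element had medians of 0.16 and 0.29, with 7 of 8 higher in each genotype. These are descriptions of lists that share arrays and carry no test.

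Pdia4 had a second, dimmer probe set, with a mean of 6.09 and changes of 0.05 and -0.05, so the 2 probe sets of that gene disagreed. The 2 probe sets of Dnajc3 held identical values.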
